A study of Danio rerio with 24 samples.

Results

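Immediate early transcription factors were followed in the intestine of zebrafish larvae through RNA sequencing at 5, 7 and 9 days post fertilization (dpf). The group was given as 10 gene names: the AP-1 subunits fosab, fosb, junba and junbb, the bZIP repressor jdp2b, the zinc finger factors egr1, egr2a and klf2a, the orphan nuclear receptor nr4a1, and ier2. The names were matched to the gene symbols of the RNA table, which gave 11 of its 30263 genes, because fosab stands beside 2 identifiers. Of these 11 genes, 9 were abundant enough to be tested, and the other 2, egr2a and the second fosab identifier, had between 0 and 4 reads in a library.

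The larvae were wild type of the AB strain and all carried the transgene tg(cldn15la:GFP), in which the promoter of an intestinal claudin gene drives a fluorescent protein. Rearing was at 28.5 °C under 14 hours of light a day, on a dry diet with rotifers and Artemia. RNA depleted of ribosomal RNA was sequenced from pools of 10 dissected intestines, 3 pools for each age, and a library such as 9dpf_2 is the second of its age. Separate clutches or days are not stated for these pools. The p-values therefore measure the spread between pools, which may be partly technical.

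Immediate early genes are transcribed within minutes of a stimulus without the need for new protein synthesis. Growth factors acting through the ERK kinases and serum response factor, and calcium or cAMP acting through CREB, are their classical inducers, and their products switch on a later wave of genes. Fos and Jun proteins pair through leucine zippers to form AP-1, Egr1 binds GC-rich sites, and Klf2 is best known as a gene that blood flow induces in endothelial cells. In the intestinal epithelium AP-1 and Egr1 are known for their part in growth factor responses and repair.

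Values are normalized read counts, that is reads divided by a size factor for each library, and means carry the SD of the 3 libraries of an age (n = 3). They are not divided by transcript length, so levels are compared between ages and not between genes. Libraries held 7014333 to 14327144 reads. All 10 enterocyte markers examined were expressed, with a summed level of 65680 to 117300 normalized counts in the 5 dpf libraries, 133000 to 194800 at 7 dpf and 168900 to 269200 at 9 dpf. A pooled intestine holds several cell types, and fewer cells of a type cannot be told apart from less RNA per cell.

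Most of the immediate early factors had their highest mean at 5 dpf, although the 5 and 9 dpf libraries of fosab, egr1 and junbb overlapped. Of the 9 tested genes, 7 fell at 7 against 5 dpf (fosab, fosb, egr1, junbb, nr4a1, klf2a and jdp2b), by between 1.89-fold and 4.38-fold, and 0 rose. Of all 24298 genes tested, 1.43% fell and 2.63% rose in this comparison at an adjusted p under 0.05 (limma, Benjamini-Hochberg adjustment over all genes). The members were chosen with earlier results of these data known, so the shares of all genes are given as a description and not as a test. In the same 7 genes every 7 dpf library lay below every 5 dpf library, which 7.49% of all genes showed, and 0 members lay wholly above, which 11.9% of all genes did. The median log2 change of the 9 genes was -1.09, against -0.002 for all genes. No member had an unadjusted p under 0.05 in the upward direction, and edgeR and DESeq2 on recovered reads each called the same 7 genes lower and 0 higher.

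At 9 against 5 dpf 4 genes had fallen in limma and in edgeR, jdp2b, klf2a, fosb and nr4a1, fosab being the fifth in DESeq2, and 0 had risen, while 4.28% of all genes fell and 12.6% rose. The 9 dpf libraries of these 4 genes all lay below the 5 dpf libraries, a separation that 15.7% of all genes showed, and 0 members lay wholly above, against 20.5% of all genes. None of the members had an unadjusted p under 0.05 for a rise there, or a rise called by edgeR or DESeq2. At 9 against 7 dpf egr1 was the only member that passed, with a rise, against 1.50% of all genes that rose and 0.383% that fell. The libraries of 5 members, egr1, fosab, junbb, junba and ier2, were nonetheless all higher at 9 than at 7 dpf, as in 11.5% of all genes, and those of klf2a were all lower, as in 8.89%. klf2a was also the 1 member with an unadjusted p under 0.05 for a fall in that step, with 0 falls called by edgeR or DESeq2, while both tools called junbb higher beside egr1. The comparisons of 7 with 5 dpf and 9 with 7 dpf share the 7 dpf libraries, and each comparison with 5 dpf shares the 5 dpf libraries.

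**Figure D1:**
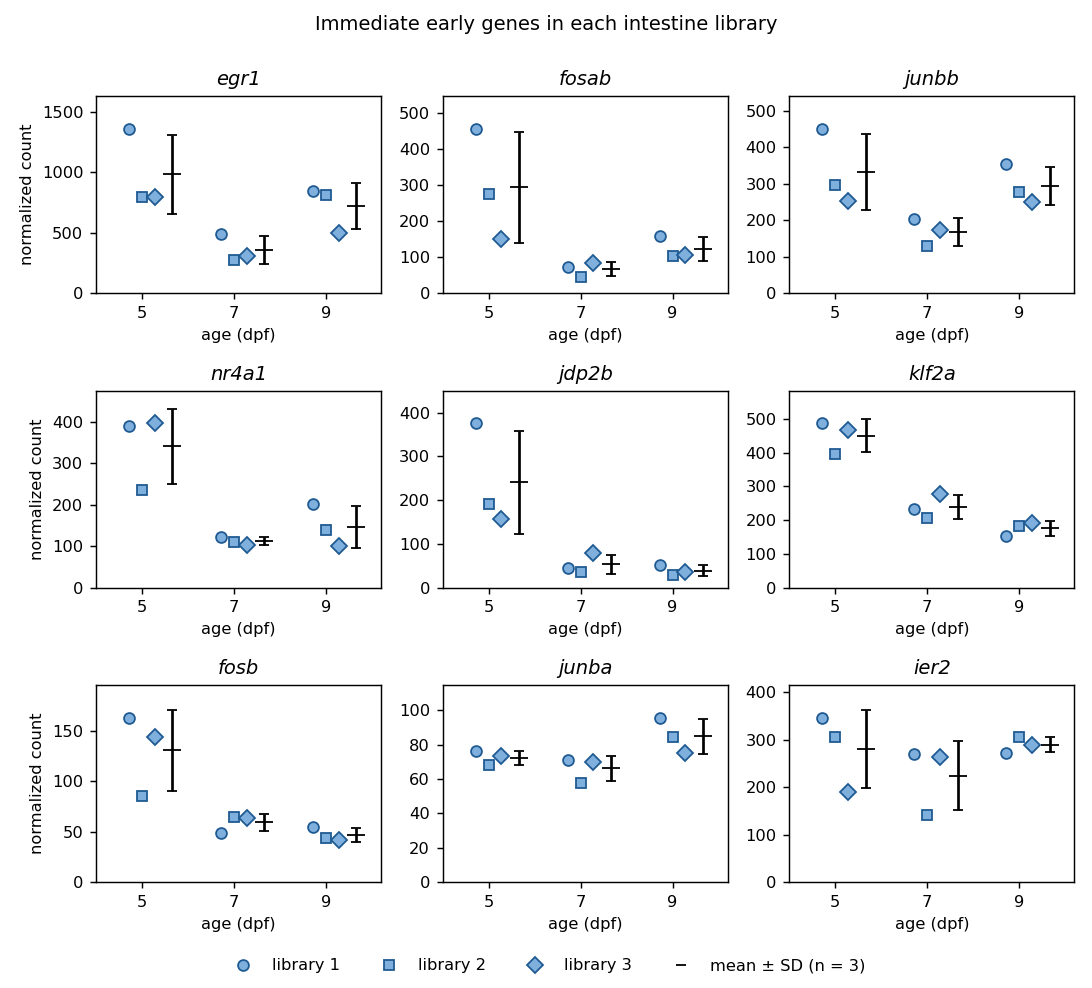
Normalized count (linear axis from 0) of the 9 tested genes against age in dpf, with 1 point per library, its shape giving the library number, and the mean ± SD of 3 libraries beside them. Points of egr1, fosab and junbb are lowest at 7 dpf, those of klf2a, jdp2b and fosb stay low at 9 dpf, and those of junba and ier2 overlap between 5 dpf and both later ages.

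The Fos subunits, which cannot bind DNA efficiently without a Jun partner, both fell at 7 against 5 dpf. fosab (ENSDARG00000031683), the zebrafish c-Fos, had 457, 275 and 149 normalized counts in the 5 dpf libraries, 71.6, 45.04 and 83.2 at 7 dpf, and 159, 102 and 104 at 9 dpf. All 7 dpf libraries lay below all others, and the 5 dpf libraries spread more than those of either later age. The gene averaged 66.6 ± 19.5 at 7 dpf against 294 ± 155 at 5 dpf, a 4.07-fold fall (log2 -2.02, SE 0.40, adjusted p = 0.0273). This call was lost in 6 settings, the adjusted p being 0.142 without 5dpf_2, 0.103 without 7dpf_1, 0.0616 without 7dpf_2, 0.0944 without 7dpf_3, 0.0533 without 9dpf_2 and 0.0746 with only the 5 and 7 dpf libraries, while log2 changes over all settings stayed between -2.44 and -1.64. At 9 dpf fosab averaged 122 ± 32.5, 1.84-fold above its 7 dpf level (adjusted p = 0.343) and 2.22-fold below its 5 dpf level (adjusted p = 0.0863), and neither difference passed in limma. The fall at 9 against 5 dpf did pass in DESeq2 (adjusted p = 0.00123), with library total scaling (0.0194), with the replicate block (0.00591) and without 5dpf_3 (0.000777), and the rise at 9 against 7 dpf passed with only those ages in the fit (0.0270).

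fosb (ENSDARG00000055751), a Fos protein with a strong activating domain, had 163, 85.8 and 144 normalized counts at 5 dpf, 49.2, 64.9 and 63.3 at 7 dpf, and 54.8, 44.2 and 41.7 at 9 dpf. The libraries at 7 and 9 dpf overlapped each other and all lay below those at 5 dpf. It fell 2.13-fold at 7 against 5 dpf (log2 -1.09, SE 0.23, adjusted p = 0.00777), with an adjusted p of 0.0715 without 5dpf_1 and 0.0654 without 7dpf_1. The fall was 2.67-fold at 9 against 5 dpf, to 46.9 ± 6.97 against 131 ± 40.0 (log2 -1.42, SE 0.23, adjusted p = 0.000217), a call that held in all 21 alternative settings.

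The Jun B genes, a pair of copies from the teleost genome duplication whose mammalian counterpart tempers c-Jun, gave a call at 7 against 5 dpf for junbb and none for junba, and the difference between the copies was not tested. junbb (ENSDARG00000104773) had 452, 296 and 253 normalized counts at 5 dpf, 204, 128 and 174 at 7 dpf, and 353, 278 and 250 at 9 dpf. Every 7 dpf library was below every other library, and the 5 and 9 dpf libraries overlapped. junbb fell 1.95-fold at 7 dpf, to 168 ± 38.2 against 333 ± 104 at 5 dpf (log2 -0.96, SE 0.22, adjusted p = 0.0140), and without 5dpf_1 the log2 change was -0.72 with an adjusted p of 0.117. At 9 dpf it averaged 294 ± 53.3, which was 1.75-fold above 7 dpf without passing (log2 0.81, adjusted p = 0.0609). The 95% confidence interval of its log2 change at 9 against 5 dpf ran from -0.61 to 0.31, and the small change of -0.15 turned to 0.09 without 5dpf_1.

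junba (ENSDARG00000074378) had 76.1, 68.1 and 73.3 normalized counts at 5 dpf, 70.8, 57.6 and 69.9 at 7 dpf, and 95.4, 84.4 and 75.1 at 9 dpf. Its libraries overlapped between 5 dpf and both later ages, and those of 9 dpf lay above those of 7 dpf. None of its comparisons passed, with log2 changes of -0.14 at 7 against 5 dpf (95% interval -0.53 to 0.26), 0.36 at 9 against 7 dpf (-0.04 to 0.75) and 0.22 at 9 against 5 dpf (-0.17 to 0.62), the last turning to -0.23 when libraries were scaled to their totals. Intervals of this width do not show that junba stayed level.

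jdp2b (ENSDARG00000020133), a relative of Fos and ATF3 that pairs with Jun and represses AP-1 sites in mammals, showed the largest fitted falls of the group in limma at 7 and at 9 dpf against 5 dpf. Its libraries held 375, 190.3 and 156 normalized counts at 5 dpf, 44.0, 36.7 and 78.4 at 7 dpf, and 51.8, 29.4 and 35.5 at 9 dpf. The lowest 5 dpf library stood well above the highest library of either later age, while 7 and 9 dpf overlapped. The fall was 4.38-fold at 7 against 5 dpf, to 53.0 ± 22.3 against 241 ± 118 (log2 -2.13, SE 0.35, adjusted p = 0.00481), and 5.78-fold at 9 against 5 dpf, to 38.9 ± 11.6 (log2 -2.53, SE 0.35, adjusted p = 0.000424). Both calls held in all 21 settings. In the RefSeq annotation of another assembly, GRCz12tu, jdp2b and fosab stand side by side on chromosome 20 with 0 annotated genes between them. Their fitted changes at 9 against 7 dpf had opposite signs, 0.88 for fosab and -0.40 for jdp2b on the log2 scale, and neither passed.

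Among the zinc finger factors, egr1 (ENSDARG00000037421) is one that ERK signalling induces and that Nab corepressors restrain. Its libraries held 1359.8, 793 and 795 normalized counts at 5 dpf, 490.1, 275 and 305 at 7 dpf, and 848, 813 and 496 at 9 dpf. All 7 dpf libraries lay below all others, although the highest of them, at 490.1, came close to the lowest at 9 dpf, at 496. egr1 fell 2.74-fold at 7 dpf, to 357 ± 116 against 982 ± 327 at 5 dpf (log2 -1.46, SE 0.26, adjusted p = 0.00228), and that call held in all 21 settings. It then rose 2.02-fold at 9 against 7 dpf, to 719 ± 194 (log2 1.02, SE 0.26, adjusted p = 0.0488). The rise lay at the edge of the threshold: the adjusted p was 0.0505 without 7dpf_1, 0.207 without 7dpf_2, 0.0802 without 7dpf_3, 0.120 without 9dpf_1, 0.249 without 9dpf_2 and 0.0520 without 9dpf_3, and the log2 change ranged from 0.84 to 1.27 over all settings. Its log2 change at 9 against 5 dpf was -0.44 (95% interval -0.99 to 0.11, adjusted p = 0.254).

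egr2a (ENSDARG00000044098), a copy of the Krox20 gene, which in mice patterns the hindbrain and drives myelination, had 0 reads in every library of 5 and 7 dpf and 1 read in each of 9dpf_1 and 9dpf_2. In the libraries without a read a count of 0 allows up to 3 reads, or 2.56 to 3.87 normalized counts depending on the library, and no fold change is given because every age lay under that limit. These limits cover counting error only.

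klf2a (ENSDARG00000042667) was highest at 5 dpf and lowest at 9 dpf. It had 486, 395 and 468 normalized counts at 5 dpf, 232, 205 and 276 at 7 dpf, and 151, 183 and 192 at 9 dpf, so that no library of one age overlapped those of another. It fell 1.89-fold at 7 against 5 dpf, to 238 ± 35.6 against 450 ± 48.5 (log2 -0.92, SE 0.18, adjusted p = 0.00520), and 2.56-fold at 9 against 5 dpf, to 175 ± 21.3 (log2 -1.36, SE 0.18, adjusted p = 3.05e-05), with both calls kept in all 21 settings. The difference at 9 against 7 dpf, log2 -0.43, did not pass (adjusted p = 0.243), but did after quantile, cyclic loess or library total scaling.

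Markers of endothelium, where Klf2 is best known, are given beside klf2a. Of 13 endothelial genes tested, 0 passed at 7 against 5 dpf in limma, edgeR or DESeq2, with 1 fall at an unadjusted p under 0.05. At 9 against 5 dpf 1 fell in limma, 4 in edgeR and 1 in DESeq2, with 5 falls and 0 rises at an unadjusted p under 0.05. Of all genes 1.43% fell at 7 and 4.28% at 9 against 5 dpf in limma at an adjusted p under 0.05. An unadjusted p under 0.05, in either direction, was met by 4091 of all 24298 genes at 7 and by 7820 at 9 against 5 dpf. The endothelial gene called by limma was tie1 (1.47-fold lower, adjusted p = 0.0448, and 0.000944 to 0.220 over 21 settings). The tie1 call was lost with no filter and without 5dpf_1, 5dpf_3, 7dpf_1, 9dpf_2 or 9dpf_3. The median log2 change of the endothelial list was -0.10 at 7 and -0.30 at 9 against 5 dpf, against -0.002 and -0.04 for all genes. Its summed level was 1960 to 2720 normalized counts in the 5 dpf libraries, 1936 to 2258 at 7 dpf and 1922 to 2051 at 9 dpf, with none of its 13 genes at 0. The part of endothelial content in the fall of klf2a was not tested.

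nr4a1 (ENSDARG00000000796), or Nur77, a receptor whose activity follows its own transcription more than a ligand, had 391, 236 and 397 normalized counts at 5 dpf, 123, 110.0 and 104 at 7 dpf, and 201, 138 and 101 at 9 dpf. The 5 dpf libraries were all above the rest, and the tight group at 7 dpf lay within the wider range of 9 dpf at its low end. It fell 2.95-fold at 7 dpf, to 112 ± 9.49 against 341 ± 91.2 at 5 dpf (log2 -1.56, SE 0.23, adjusted p = 0.000323). At 9 dpf it was 2.34-fold below 5 dpf, at 147 ± 50.5 (log2 -1.23, SE 0.23, adjusted p = 0.000844). Both calls held in all 21 settings, and the difference between 9 and 7 dpf did not pass (log2 0.33, adjusted p = 0.519).

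ier2 (ENSDARG00000099195), named ier2a in the reference table, encodes a small protein of the immediate early response. It had 346, 306 and 189 normalized counts at 5 dpf, 269, 141 and 263 at 7 dpf, and 273, 305 and 289.9 at 9 dpf. The 9 dpf libraries were close together and above those of 7 dpf, while 5 dpf spanned nearly the whole range. No comparison passed, with log2 changes of -0.33 at 7 against 5 dpf (95% interval -0.83 to 0.17), 0.42 at 9 against 7 dpf (-0.08 to 0.92) and 0.09 at 9 against 5 dpf (-0.41 to 0.59), the last turning negative after quantile, cyclic loess or library total scaling, in edgeR and without 5dpf_3.

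**Figure D2:**
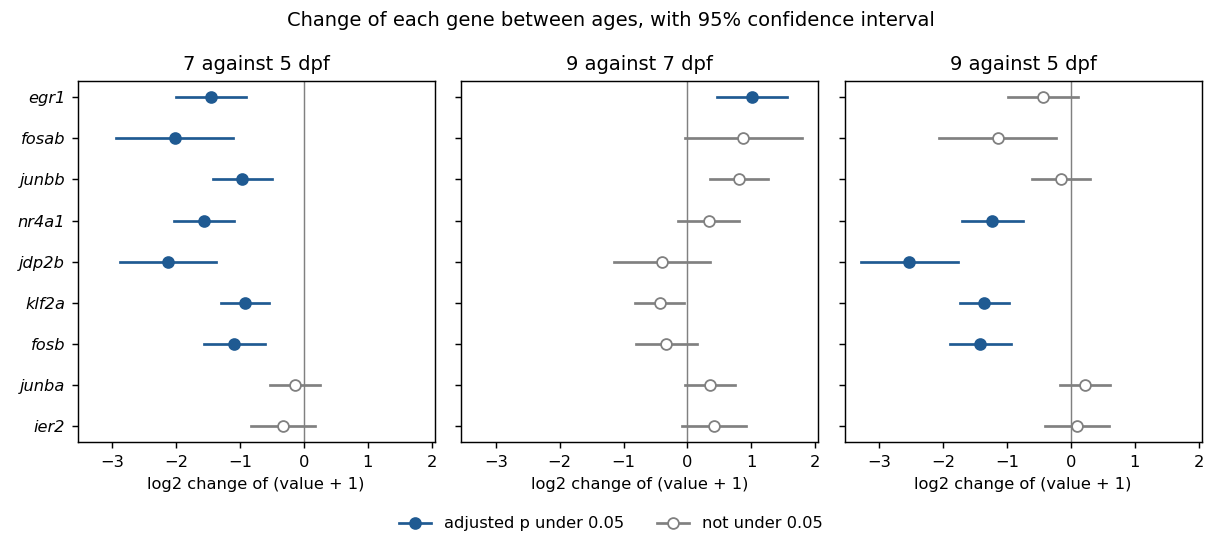
Log2 change of (normalized count + 1) for the 9 tested genes in the 3 age comparisons, as points with 95% confidence intervals from limma. Filled points passed at an adjusted p under 0.05, which 7 genes did at 7 against 5 dpf, egr1 alone did at 9 against 7 dpf, and 4 genes did at 9 against 5 dpf.

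Whether the second step differed from the first was tested directly, as the change at 9 against 7 dpf minus the change at 7 against 5 dpf. The difference passed for egr1 (log2 2.47, SE 0.46, adjusted p = 0.00786), nr4a1 (log2 1.89, SE 0.40, adjusted p = 0.0197) and junbb (log2 1.77, SE 0.38, adjusted p = 0.0232), all in the direction of a fall followed by a weaker change or a rise. Among all genes 0.642% passed in that direction and 0.362% in the other. fosab had the largest fitted difference of the group, log2 2.90 (95% interval 1.32 to 4.49), and did not pass in limma (adjusted p = 0.139), although it passed in DESeq2 (0.000123), with the replicate block, without 5dpf_1 (0.0122) and without 5dpf_3 (0.00108). Neither limma, edgeR nor DESeq2 called jdp2b (log2 1.73, adjusted p = 0.331). For klf2a, fosb, junba and ier2 the log2 difference was between 0.49 and 0.76 with adjusted p of 0.634 to 0.768. The calls of egr1, nr4a1 and junbb were each lost in 3 of the 20 settings. junbb had an adjusted p of 0.0589 without 5dpf_1, 0.0513 without 7dpf_1 and 0.122 without 7dpf_2. nr4a1 had 0.0840 without 7dpf_1, 0.0725 without 7dpf_2 and 0.0710 without 7dpf_3, and egr1 lost its call only after quantile, cyclic loess or library total scaling. In 3 of the 9 genes, egr1, fosab and junbb, every 7 dpf library was below every library of both other ages, a shape that 1.65% of all genes had.

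The libraries of an age differed in the same direction for several members. Library 5dpf_1 held the highest value of all 9 libraries for 7 of the 9 genes, all but nr4a1 and junba, whereas it was highest for 9.32% of all tested genes. Library 7dpf_2 held the lowest value for 5 genes (fosab, egr1, junba, junbb and ier2), against 6.96% of all genes. Without 5dpf_1, 5 members still fell at 7 against 5 dpf, fosb and junbb losing their calls. Without 7dpf_1 the count was also 5, fosab and fosb losing theirs, and it was 6 or 7 when any of the other libraries was left out. The 4 calls at 9 against 5 dpf held with any library left out and in every other setting.

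**Figure D3:**
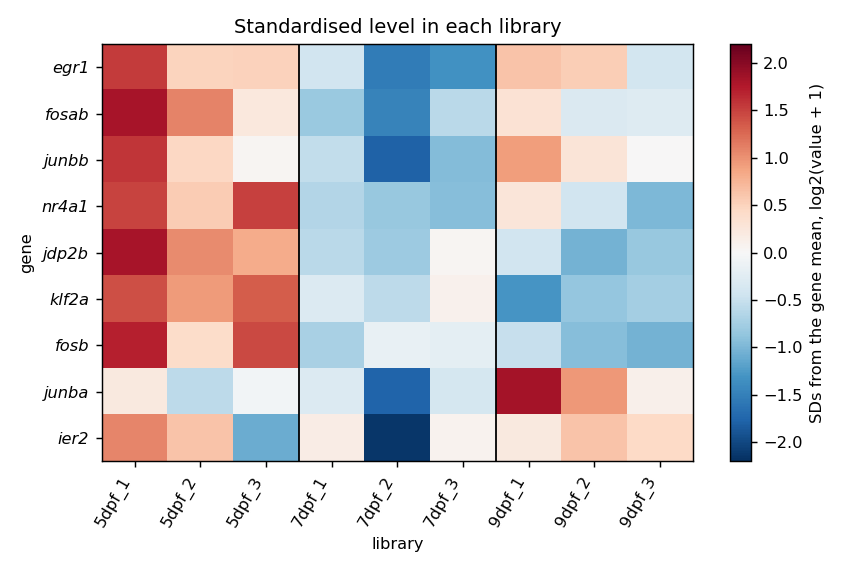
Level of the 9 tested genes (rows) in the 9 libraries (columns, grouped by age in dpf) as SDs of log2(normalized count + 1) from the gene's own mean, from blue (below the mean) to red (above). Column 5dpf_1 holds the highest value of 7 genes and column 7dpf_2 the lowest of 5 genes.

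Other genes of the AP-1, ATF and Maf families were read from a list of 28 names, of which 22 were tested and 17 were not among the genes described above. Of these 17, 4 fell and 0 rose at 7 against 5 dpf, where 1.43% of all genes fell and 2.63% rose. The same 4, jund, fosl2, fosaa and jun, fell at 9 against 5 dpf with 0 risers, where 4.28% of all genes fell and 12.6% rose. In both comparisons edgeR and DESeq2 likewise called 4 lower and 0 higher, and 1 gene rose at an unadjusted p under 0.05. The later step, 9 against 7 dpf, gave 0 calls in limma, with 1 rise and 0 falls at an unadjusted p under 0.05, 1 rise in edgeR and 0 in DESeq2. The median log2 change of the 17 was -0.39 at 7 and -0.20 at 9 against 5 dpf. jund, the Jun protein most steadily present in cells, fell 2.48-fold at 7 dpf, to 616 ± 188 against 1558 ± 541 normalized counts at 5 dpf (adjusted p = 0.00691, and 0.0512 without 7dpf_1). fosaa, the duplicate of fosab, fell 2.46-fold at 9 dpf, to 33.5 ± 6.64 against 84.3 ± 19.9 at 5 dpf (adjusted p = 0.00243, kept in all 21 settings). The falls of fosl2 and of jun, the central AP-1 subunit, were 2.00-fold and 1.83-fold at 7 against 5 dpf (adjusted p = 0.0144 and 0.0331), and both lost their calls without 5dpf_1, 5dpf_3 or 7dpf_1, jun also without 7dpf_2 or 9dpf_3. The fall of fosaa at 7 against 5 dpf was lost without 5dpf_1, 5dpf_3, 7dpf_1 or 7dpf_3. The count of fallers at 7 against 5 dpf was 0 without 7dpf_1 and 6 with library total scaling, and at 9 against 5 dpf it was 1 without 5dpf_1, 5dpf_3, 9dpf_1 or 9dpf_2. atf3, a stress-induced bZIP factor, was at 284 ± 44.2 at 7 dpf and 396 ± 98.4 at 5 dpf and did not pass (adjusted p = 0.470).

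**Figure D4:**
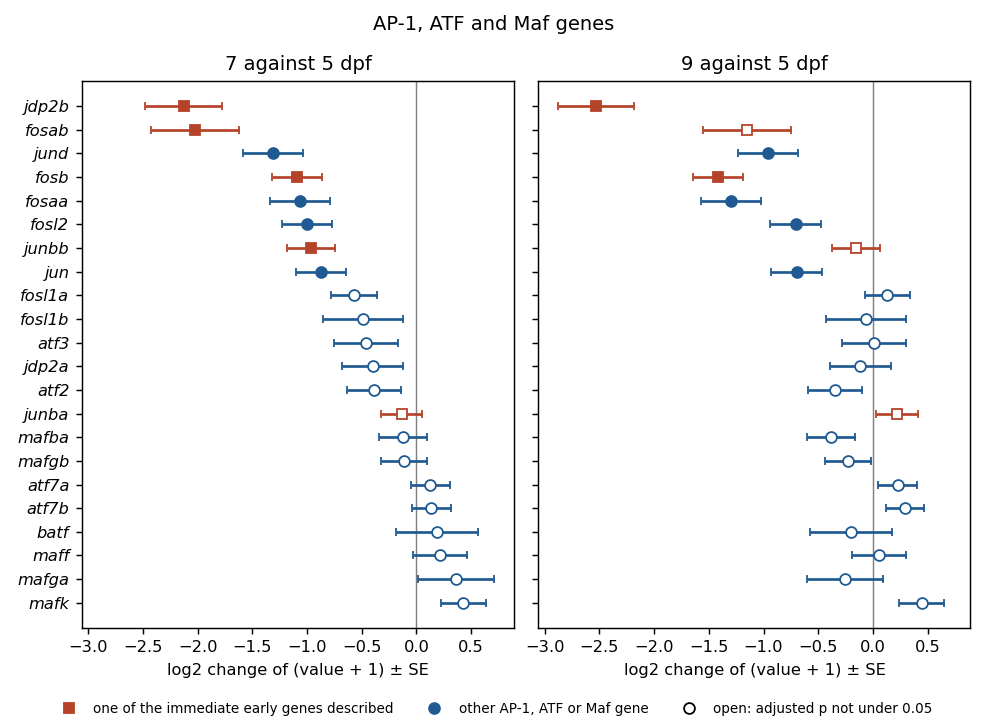
Log2 change of (normalized count + 1) ± SE at 7 against 5 dpf (left) and 9 against 5 dpf (right) for 22 AP-1, ATF and Maf genes, squares being the genes described above and circles the other genes of the list. Filled symbols passed at an adjusted p under 0.05; at 7 against 5 dpf these are jdp2b, fosab, jund, fosb, fosaa, fosl2, junbb and jun, and the Maf genes are open in both panels.

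A wider list of 96 immediate early and growth factor response genes, of which 84 were tested, also held more falls than rises. At 7 against 5 dpf 12 fell, 4 of them the AP-1 genes just named, and 1 rose, with a median log2 change of -0.10. Of all genes 1.43% fell and 2.63% rose in that comparison. At 9 against 5 dpf 18 fell, the same 4 AP-1 genes among them, and 4 rose, with a median of -0.17 against -0.04 for all genes. There 4.28% of all genes fell and 12.6% rose. The fallers at 7 dpf were 5 without 5dpf_1 or 7dpf_1 and 23 with library total scaling. Those at 9 dpf were 8 without 5dpf_1 and 37 with library total scaling. The calls over all genes moved too. At 7 against 5 dpf 985 passed with all libraries, 484 without 5dpf_1, 315 without 7dpf_1 and 1774 with library total scaling (35.4% of them higher). At 9 against 5 dpf 4094 passed with all libraries, 2853 without 5dpf_1 and 5612 with library total scaling (23.5% of them higher). sik1, a kinase gene that CREB induces and that then restrains CREB coactivators, fell 3.57-fold at 7 dpf, to 203 ± 28.0 against 741 ± 203 at 5 dpf (adjusted p = 2.98e-05). It stayed low at 9 dpf, at 197 ± 43.8 (3.71-fold below 5 dpf, adjusted p = 3.83e-06). dusp8a, a phosphatase that inactivates stress kinases, fell 2.83-fold at 7 against 5 dpf (adjusted p = 0.000120). klf4, a Krüppel-like factor of epithelial differentiation, fell 5.01-fold at 9 against 5 dpf, to 114 ± 20.4 against 633 ± 308 (adjusted p = 0.00907). rgs2, a brake on G protein signalling, fell 2.62-fold at 9 against 5 dpf (adjusted p = 0.000120). The calls named here for sik1, dusp8a, klf4 and rgs2 held in all 21 settings.

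Fewer genes of the wider list rose. btg1, an antiproliferative gene, rose 2.30-fold at 7 against 5 dpf (adjusted p = 0.0138, lost without 7dpf_1 or 7dpf_3, the highest of its range being 0.0910). The risers at 9 against 5 dpf were btg1, mycb, id2a and dusp5, and without 9dpf_2 their number was 0. Of all genes 1818 passed there without 9dpf_2, against 4094 with all libraries. At 9 against 7 dpf 2 rose and 1 fell, while 1.50% of all genes rose and 0.383% fell. The fallers of the list were 10 after quantile or cyclic loess scaling. Of all genes 458 passed in that step, 1552 after quantile and 2044 after cyclic loess scaling. ptgs2b, which encodes a prostaglandin synthase of the Cox-2 type, rose to 189 ± 37.2 at 9 dpf against 88.6 ± 12.6 at 7 dpf (log2 1.07, adjusted p = 0.00444), and dusp5, an ERK phosphatase, rose 1.95-fold (adjusted p = 0.00729, and 0.0976 at most over the settings, lost without 7dpf_1 or 9dpf_2 and with library total scaling). gadd45ba, a stress and growth arrest gene, fell 2.14-fold (adjusted p = 0.00774, lost without 7dpf_1 or 9dpf_3, with 0.0628 at most). ptgs2b, like egr1 and junbb, had also fallen at 7 against 5 dpf (adjusted p = 0.00414), and its second step differed from the first (log2 2.05, adjusted p = 0.00212), a call kept in all 20 settings. The step difference of 4 of the 84 genes passed in that direction, sik1, dusp2 and dusp8a beside ptgs2b, and of 0 in the other. Of all genes 0.642% and 0.362% did so. The calls of sik1, dusp2 and dusp8a were lost in 2, 4 and 1 of the 20 settings.

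Genes that act upstream of immediate early transcription were read against the same shares of all genes, 1.43% lower and 2.63% higher at 7 against 5 dpf. Of 61 tested kinases, serum response and CREB factors and feedback regulators, 0 passed in limma at 7 against 5 dpf, with 5 rises and 1 fall at an unadjusted p under 0.05, while edgeR and DESeq2 each called 0 higher and 1 lower. Between 9 and 7 dpf 0 passed in any of these tools, with 2 rises and 2 falls at an unadjusted p under 0.05. An unadjusted p under 0.05, in either direction, was met by 4091 of all 24298 genes at 7 against 5 dpf. At 9 against 7 dpf 3788 met it. The comparison of 9 with 5 dpf gave 2 risers, among them mapk14a (p38, 1.98-fold, adjusted p = 0.00236), and 2 fallers, spry4 (a feedback inhibitor of ERK signalling, 2.11-fold, adjusted p = 0.00133) and creb1b (1.44-fold, adjusted p = 0.0328). edgeR called 4 lower and DESeq2 2, and of all genes 4.28% fell and 12.6% rose. The calls of mapk14a and spry4 held in all 21 settings, whereas that of creb1b was lost without 5dpf_1, 5dpf_2, 5dpf_3, 7dpf_1, 9dpf_2 or 9dpf_3. With library total scaling 20 of the list were lower at 9 against 5 dpf. Under that scaling 5612 of all genes passed in this comparison, 23.5% of them higher. In the main fit 4094 passed, 74.6% of them higher.

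A list of heat shock and stress chaperones, with mitochondrial chaperone genes beside heat-inducible ones, held more rises than falls. So did all genes tested (2.63% higher and 1.43% lower at 7 against 5 dpf, 12.6% and 4.28% at 9 against 5 dpf). Of 27 tested, 3 rose and 1 fell at 7 against 5 dpf, the risers being 0 without 7dpf_1. Of all genes 985 passed in that comparison with all libraries and 315 without 7dpf_1. At 9 against 5 dpf 10 rose and 0 fell in limma, edgeR and DESeq2 alike, with 1 fall at an unadjusted p under 0.05. With library total scaling 6 rose, while quantile and cyclic loess scaling each gave 2 falls. Under these 3 scalings 5612, 5118 and 5221 of all genes passed, 23.5%, 53.2% and 55.1% of them higher. Without them 4094 passed, 74.6% of them higher. The step of 9 against 7 dpf held 7 rises and 1 fall, against 1.50% and 0.383% of all genes. These rises were 2 without 7dpf_1 or 9dpf_3 and 9 with cyclic loess scaling, and the falls ran from 0 to 3 over the settings. Of all genes 458 passed in that step, 101 without 7dpf_1, 119 without 9dpf_3 and 2044 with cyclic loess scaling. ubb, a polyubiquitin gene, rose 3.60-fold at 9 against 5 dpf (adjusted p = 5.34e-05), and the mitochondrial chaperone genes hspe1 and hspd1 rose 3.47-fold and 3.33-fold. In limma hspa4a (log2 1.63, adjusted p = 3.24e-05), dnajb1b (log2 1.59, adjusted p = 2.47e-05) and hsp90aa1.2 (log2 1.125, adjusted p = 0.0064) also rose there. The remaining risers of that comparison were hspb8, hspa4b, dnaja1 and hsf1. The heat-inducible hsp70l passed in no comparison in limma, with 65.9 ± 36.6 normalized counts at 7 dpf against 63.9 ± 12.0 at 5 dpf. Its libraries ran from 34.0 in 7dpf_3 to 106 in 7dpf_2. hsp70.1, hsp70.2, hsp70.3 and hsp90aa1.1 of the list also passed in no comparison in limma. Their 5 dpf means were low, at 12.4, 17.1, 19.0 and 17.6 normalized counts, near the filter of 10.

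The genes whose profile over the 9 libraries was most like the mean standardised profile of the 9 immediate early genes were sought among 12910 other genes. These had a mean of at least 50 normalized counts and a symbol that is not a clone name. A search of so many genes over only 9 libraries can by itself give high correlations. Pearson's r, given as a description without a test, was 0.972 for glipr2l, 0.937 for cdkn1a, 0.928 for samm50l, 0.917 for cpe, 0.916 for sdccag8, 0.897 for basp1, and 0.894 for carf and for ints6. cdkn1a encodes p21, an inhibitor of cyclin-dependent kinases. It averaged 103 ± 25.8 normalized counts at 5 dpf, 40.4 ± 15.6 at 7 dpf and 56.6 ± 5.36 at 9 dpf, values given without a test because the gene was picked for this profile. With the mean of each age taken out, so that only the differences among libraries of 1 age remained, the most similar genes were atxn7l1 (0.959), gtf2h1 (0.948), coa3b (0.937), ipp (0.936), glipr2l (0.929), the spliceosomal RNA U4 (0.925), pfkfb2a (0.918) and tmem201 (0.908). glipr2l alone was in both sets.

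Markers of other cells that the dissection could hold were read beside these changes. At 7 against 5 dpf, where most immediate early genes fell, 0 of 12 enteric neuron and glia genes, 0 of 13 epidermis genes and 0 of 10 liver genes passed in limma, edgeR or DESeq2, with 1, 1 and 0 falls and 0 rises at an unadjusted p under 0.05. Of 11 exocrine pancreas genes 0 passed in limma or edgeR and 3 rose in DESeq2, with 6 rises at an unadjusted p under 0.05. Of 5 erythrocyte genes 0 passed in limma and 1 fell in edgeR and in DESeq2, with 3 falls at an unadjusted p under 0.05. In limma 2 of 9 smooth muscle and mesenchyme genes fell, the collagen genes col1a1a and col1a2 (3 in edgeR and in DESeq2). Among 14 leukocyte genes 1 rose, mmp9, among 13 skeletal muscle genes 1 rose, and among 10 enterocyte genes 1 rose, apoa4b.2 (2 enterocyte genes in DESeq2). Of all genes 1.43% fell and 2.63% rose at an adjusted p under 0.05. An unadjusted p under 0.05, in either direction, was met by 4091 of all 24298 genes. At 9 against 5 dpf 5 enterocyte genes and 3 leukocyte genes rose in limma, against 12.6% of all genes. In limma 4 skeletal muscle genes, 2 enteric neuron and glia genes, 2 smooth muscle and mesenchyme genes (col1a1a and col1a2) and 1 epidermis gene (agr1) fell, against 4.28% of all genes. edgeR and DESeq2 called 6 and 7 enterocyte and 2 and 3 leukocyte genes higher. They called 7 and 5 skeletal muscle, 2 and 2 enteric neuron and glia, 3 and 3 smooth muscle and mesenchyme and 2 and 2 epidermis genes lower, and edgeR 1 leukocyte gene. Of the 10 liver genes 0 passed there in limma, 1 fell in edgeR and 5 fell in DESeq2, with 4 falls at an unadjusted p under 0.05. Of the 5 erythrocyte genes 0 passed in limma and 1 fell in edgeR and in DESeq2, with 3 falls at that unadjusted threshold. Of the 11 exocrine pancreas genes 0 passed in any of these tools, with 2 rises at that threshold. Of all genes 7820 met it at 9 against 5 dpf, in either direction. The summed leukocyte level was 611 to 692 normalized counts in the 5 dpf libraries, 730.0 to 798 at 7 dpf and 777 to 903 at 9 dpf. The median log2 change of the 14 leukocyte genes was 0.144 at 7 against 5 dpf, against -0.002 for all genes. At 9 against 5 dpf it was -0.044, against -0.042 for all genes. The medians at 7 and at 9 against 5 dpf were 0.56 and 0.954 for enterocyte, 1.14 and 0.598 for exocrine pancreas and 0.151 and -0.936 for liver genes. They were -0.189 and -0.413 for smooth muscle and mesenchyme, 0.011 and -0.374 for enteric neuron and glia and -0.028 and -0.535 for skeletal muscle. For epidermis they were 0.027 and -0.178, and for erythrocyte genes -0.623 and -0.503. The summed smooth muscle and mesenchyme level was 11530 to 19840 at 5 dpf, 10140 to 15930 at 7 dpf and 11010 to 14590 at 9 dpf. The summed liver marker level was 783 to 3259 at 5 dpf, 741 to 2004 at 7 dpf and 486 to 551 at 9 dpf. Single libraries held the high ends: 5dpf_3 had 3259, beside 933 in 5dpf_1 and 783 in 5dpf_2. Likewise 7dpf_2 had 2004, beside 1043 in 7dpf_1 and 741 in 7dpf_3. At 9 against 7 dpf 5 skeletal muscle genes and 1 enteric neuron and glia gene fell in limma, against 0.383% of all genes. No other marker passed in limma in that step, and the median log2 change of the liver genes was -1.126. The step difference passed with a negative sign for 4 skeletal muscle genes, against 0.362% of all genes, and for no other marker. No marker of any of these lists was at 0 in all libraries, and the part of cell makeup in the falls was not tested.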

How the data were processed

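The build GRCz10, the aligner STAR 2.5.2b and DESeq2 1.16.1 are named in the submitters' processing notes. The counter, its annotation and its use of strand are not given in the sources used here, so reads shared by duplicated or overlapping genes could not be resolved. The deposited values are a signal: for every library the authors had divided reads by a single size factor. Whole reads were recovered for 100.0% of values within 1e-06, and 0 columns were left unmapped.

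Genes with 10 or more in at least 3 of 9 libraries (24298) were tested on log2(value + 1) with limma 3.58.1 (trend, robust, all ages in 1 fit) at an adjusted p under 0.05. The added 1 understates changes of weakly expressed genes. edgeR 4.0.16 and DESeq2 1.42.0 on recovered reads, other scalings, filters and pseudocounts of 0.5 and 5, a replicate block and left-out libraries were alternatives. The fit was tested on simulated counts with known size factors, which could not test the choice of scaling.

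All members are named. Of the other lists, only some of the rises and falls that passed are named. The heat shock calls at 7 against 5 dpf and at 9 against 7 dpf are counted without names. Single genes such as hsp70l and atf3 were chosen after their values were seen. The members and lists were chosen with earlier results of these data known. Of 11 member genes, 10 had a name in the reference table. The result for 1 gene of the upstream list is not reported here. The histone mark peak lists of the series were not used here.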

Additional observations from a re-analysis of the deposited data

How the results depend on the processing

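Of 747 recomputed log2 changes of the immediate early genes, 690 kept direction and side of the threshold, 29 lost a call, 21 gained one and 7 changed sign. The falls of jdp2b, egr1, nr4a1 and klf2a at 7 against 5 dpf and of jdp2b, fosb, nr4a1 and klf2a at 9 against 5 dpf held in all 21 settings. Sign changes were all at 9 against 5 dpf: ier2 to log2 -0.21 after quantile, -0.17 after cyclic loess and -0.37 after library total scaling, -0.008 in edgeR and -0.17 without 5dpf_3 (to 0.26 with another library left out), junba to -0.23 after library total scaling, and junbb to 0.088 without 5dpf_1 (down to -0.33 with another library left out). At 9 against 7 dpf the risers were 2 after TMM scaling, in edgeR, in DESeq2 and with the replicate block, 3 with only the ages compared, and 0 with no filter, with a filter of 50 and after quantile, cyclic loess or library total scaling; these last 3 scalings each gave 1 faller, klf2a. With 1 library left out, risers ran from 0 to 2 and fallers were 0 there, fallers ran from 5 to 7 at 7 against 5 dpf and from 4 to 5 at 9 against 5 dpf with 0 risers in both, and the step difference was called for 1 to 4 members, being 1 without 7dpf_1 or 7dpf_2.

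Over all genes, 985 passed at 7 against 5 dpf, 458 at 9 against 7 dpf and 4094 at 9 against 5 dpf. At 7 against 5 dpf 2275 passed after quantile, 2089 after cyclic loess and 1774 after library total scaling. At 9 against 7 dpf 774 passed after TMM, 1552 after quantile, 2044 after cyclic loess and 1224 after library total scaling, 790 in edgeR and with the replicate block each, 868 in DESeq2 and 843 with only the ages compared. With 1 library left out the counts ran from 315 to 1528, from 101 to 998 and from 1818 to 4724. Of the calls 64.8%, 79.7% and 74.6% were higher, against 54.0%, 57.4% and 53.2% after quantile scaling and 35.4%, 50.2% and 23.5% after library total scaling, which was chosen after seeing the data and moved the median of all genes by -0.28, -0.17 and -0.45. The cause of these differences was not tested. The replicate numbers do not mark a shared day in the labels, same-number libraries had correlations from -0.42 to 0.47 after removal of age means, and 1 of 9 libraries correlated best with its own number. Under the block fosab also passed at 9 against 5 dpf and in the step difference. Peaks of histone marks at the start sites were not run, since no gene annotation on their build was at hand.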

Other observations

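The second identifier named fosab (ENSDARG00000097234) has no name in the reference table. It had 0 reads in each 5 dpf library, in 7dpf_1, 7dpf_3 and 9dpf_1, and 1, 4 and 3 reads in 7dpf_2, 9dpf_2 and 9dpf_3, where the tested fosab had 43, 104 and 100 reads. Whether these reads come from a separate gene or from sequence shared with fosab cannot be told apart from the counts.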
